A study of Mus musculus with 8 samples.

Results

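The genes described are 33 imprinted genes of the mouse, chosen as a fixed list by name and grouped by chromosomal domain. They are 33 of the 47434 genes in the expression table. Their levels were measured by poly-A RNA sequencing in the mouse hepatoma line Hepa 1-6. In 4 libraries the cells carried a G9a knockout, and 4 libraries were of wild-type (WT) cells. G9a, the product of Ehmt2, is a histone methyltransferase that adds 1 or 2 methyl groups to lysine 9 of histone H3. All 8 libraries came from this line, the labels name no treatment for either group, and the knockout libraries are labelled as derivatives of the wild-type cells. Whether replicate libraries stem from different cultures or different knockout clones is not in the labels. The p-values thus reflect the spread among these libraries, and that spread may be technical.

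An imprinted gene is transcribed mainly from the allele of one parent. Imprinted genes lie in domains, and a control region whose DNA is methylated on one parental allele sets the expression of its neighbours. In the Kcnq1ot1 and Igf2r domains the paternal allele makes a long antisense RNA, Kcnq1ot1 or Airn, and genes in cis to it are silenced on that allele. In mouse placenta G9a is known to take part in the silencing of genes at a distance from these RNAs, such as Cd81 and Tssc4 near Kcnq1ot1 and Slc22a3 near Airn, while Cdkn1c, Phlda2 and Igf2r are silenced in the embryo as well. Total counts do not tell the parental alleles apart, so allele-specific expression was not measured here. In a bulk sample, fewer expressing cells and less RNA per cell cannot be told apart either.

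Library totals lay between 58256100 and 75025236 counts, at which a count of 0 allows a level of up to 3 counts, 0.04 to 0.0515 CPM (counts scaled to 1000000 per library), for counting error only. Of 15840 genes tested with edgeR's quasi-likelihood test, 7476 passed an adjusted p of 0.05 (47.2%), 3742 of them higher and 3734 of them lower in knockout libraries. When counts were scaled by library size with no TMM factor, the split was 4543 higher and 2742 lower, and the median log2 fold change of all genes moved by 0.08. Ehmt2 had 118.0 ± 1.55 CPM in knockout libraries and 314.2 ± 21.3 CPM in WT libraries (SD, n = 4 each), a log2 fold change of -1.41 ± 0.05 (SE; adjusted p = 3.82e-10). Whether its counts lie in the deleted part is not known here. Of 7 hepatocyte and hepatoma markers, Alb, Ttr and Hnf4a had no count in any library. The summed level of that list was 1330 to 1490 CPM in knockout libraries and 1160 to 1250 CPM in WT libraries. The summed levels of the 5 fibroblast and stellate markers were 14.8 to 16.7 CPM in knockout libraries and 4.08 to 5.48 CPM in WT libraries, with Lrat at 0. The 3 endothelial markers summed to 4.66 to 5.65 CPM in knockout libraries and 2.33 to 3.32 CPM in WT libraries, and the 3 cholangiocyte markers summed to 49.6 to 57.9 CPM in knockout libraries and 56.1 to 61.3 CPM in WT libraries, with Krt7 at 0. Of the leukocyte markers, Ptprc had 1.01 to 1.17 CPM in knockout libraries and 0.391 to 0.492 CPM in WT libraries, and Cd3e and Adgre1 had no count. The hepatocyte, fibroblast and endothelial sums and Ptprc did not overlap between the groups, while the cholangiocyte sums did. Within lists, members differed: Pdgfrb averaged 0.0547 CPM in knockout libraries and 0.186 CPM in WT libraries, opposite to the sum of its list. Krt8 and Krt18 made up most of the hepatocyte sum, and Krt18 averaged 475.1 CPM in knockout libraries and 489.1 CPM in WT libraries. Afp averaged 133.3 CPM in knockout libraries and 5.77 CPM in WT libraries. Krt19 made up most of the cholangiocyte sum, while Epcam averaged 1.24 CPM in knockout libraries and 4.71 CPM in WT libraries, without overlap. The part of these markers in the results below was not tested.

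Promoter sequences are shown for 5 of the genes on which the results turn: the control RNA of the Kcnq1ot1 domain, a gene on each side of it that moved with the knockout, and the most changed genes of the Peg3 domain and of the genes outside larger domains. Each is the 300 bases from 250 before to 50 after a RefSeq start on GRCm38.p6, written 5′ to 3′ along the gene's strand, with CG dinucleotides, the sites of DNA methylation, in capitals. Kcnq1ot1 is chr7:143296498-143296797 (minus strand), which lies inside the span of Kcnq1. Phlda2 is chr7:143502475-143502774 (minus), Cd81 is chr7:143052500-143052799 (plus), Peg3 is chr7:6730370-6730669 (minus) and Nnat is chr2:157559828-157560127 (plus).
Kcnq1ot1: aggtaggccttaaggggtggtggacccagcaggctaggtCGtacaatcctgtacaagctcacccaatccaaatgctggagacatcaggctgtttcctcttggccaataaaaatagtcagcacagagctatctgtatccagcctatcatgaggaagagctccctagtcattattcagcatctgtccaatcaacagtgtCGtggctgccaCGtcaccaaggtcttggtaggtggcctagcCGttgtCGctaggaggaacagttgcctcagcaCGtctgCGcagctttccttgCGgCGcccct
Phlda2: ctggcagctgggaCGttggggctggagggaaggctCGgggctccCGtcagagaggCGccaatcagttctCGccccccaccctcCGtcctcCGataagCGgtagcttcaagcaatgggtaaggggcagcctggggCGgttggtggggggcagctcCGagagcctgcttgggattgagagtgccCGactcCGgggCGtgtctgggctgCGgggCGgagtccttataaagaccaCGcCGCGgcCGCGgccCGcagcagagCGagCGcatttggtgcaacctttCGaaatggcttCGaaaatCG
Cd81: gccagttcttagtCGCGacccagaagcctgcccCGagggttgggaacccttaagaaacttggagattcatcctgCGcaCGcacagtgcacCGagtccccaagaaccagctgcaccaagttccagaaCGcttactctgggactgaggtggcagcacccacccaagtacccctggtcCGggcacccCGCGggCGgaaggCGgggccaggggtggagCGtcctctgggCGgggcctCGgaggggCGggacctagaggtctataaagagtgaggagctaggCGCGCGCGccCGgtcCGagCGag
Peg3: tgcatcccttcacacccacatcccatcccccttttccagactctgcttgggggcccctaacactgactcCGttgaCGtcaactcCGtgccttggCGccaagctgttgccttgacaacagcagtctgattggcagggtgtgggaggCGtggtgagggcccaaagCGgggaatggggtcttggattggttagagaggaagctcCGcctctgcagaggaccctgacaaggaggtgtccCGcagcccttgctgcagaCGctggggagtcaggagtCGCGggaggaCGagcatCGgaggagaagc
Nnat: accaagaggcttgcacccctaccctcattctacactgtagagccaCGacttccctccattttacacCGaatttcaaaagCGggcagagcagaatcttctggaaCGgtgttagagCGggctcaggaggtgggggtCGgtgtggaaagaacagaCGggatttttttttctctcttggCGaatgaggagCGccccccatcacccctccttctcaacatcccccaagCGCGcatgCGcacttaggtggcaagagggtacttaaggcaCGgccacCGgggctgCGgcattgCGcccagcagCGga
These promoters held 9 CG dinucleotides at Kcnq1ot1, 26 at Phlda2, 23 at Cd81, 13 at Peg3 and 17 at Nnat. The median was 7 over all 32851 promoters of the table and 13 over the 39 promoters listed for the imprinted genes. The promoter of Usp29, chr7:6730333-6730632 on the plus strand, covers most of the bases of the Peg3 promoter on the other strand. The letters TGCCGC, the motif bound by the imprint-keeping protein ZFP57 when its CG is methylated, were searched on both strands. They were found in 11.6% of all promoters and in 9 of the 39 promoters of the imprinted genes (23.1%). The comparison was not adjusted for CG content, and some of the 39 promoters overlap. Those of Mest at chr6:30737800-30738099 and chr6:30737803-30738102, for example, both held matches. Among the 5 sequences printed only the Nnat promoter held a match, which does not show a bound site. A promoter was listed for 26 of the 33 genes, and Cdkn1c and Kcnq1 were among those with none in the table.

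Of the 33 genes, 17 had counts enough to be tested, 9 had a few counts and 7 had none in any library. Levels per transcript length, scaled to the same total (TPM), ranged in WT libraries from 0.00624 TPM for Igf2 to 1048 TPM for Gnas among the genes with counts there. Gnas, which encodes the stimulatory G protein alpha subunit, stood highest with 612.9 ± 49.9 TPM in knockout libraries and 1048 ± 69.4 TPM in WT libraries (SD, n = 4 each). Nap1l4, a histone chaperone gene, followed with 142.1 ± 3.01 TPM in knockout libraries and 127.9 ± 4.29 TPM in WT libraries. The other genes above 30 TPM in both groups were Phlda2, Tssc4, Igf2r and Impact. Tssc4, Igf2r and Phlda2 lay at 68.4, 47.9 and 47.5 TPM in knockout libraries, and in WT libraries Phlda2 stood at 115 TPM above Tssc4 at 56.5 and Igf2r at 47.4 TPM. In knockout libraries, Igf2r (SD 6.06) and Phlda2 (SD 2.27) did not differ beyond their spread. Of the antisense RNAs, Kcnq1ot1, annotated as 1 exon of 93092 bases, had 0.555 TPM in knockout libraries and 0.567 TPM in WT libraries. Airn had 2.98 ± 0.734 TPM in knockout libraries and 1.57 ± 0.770 TPM in WT libraries (SD, n = 4 each).

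**Figure D1:**
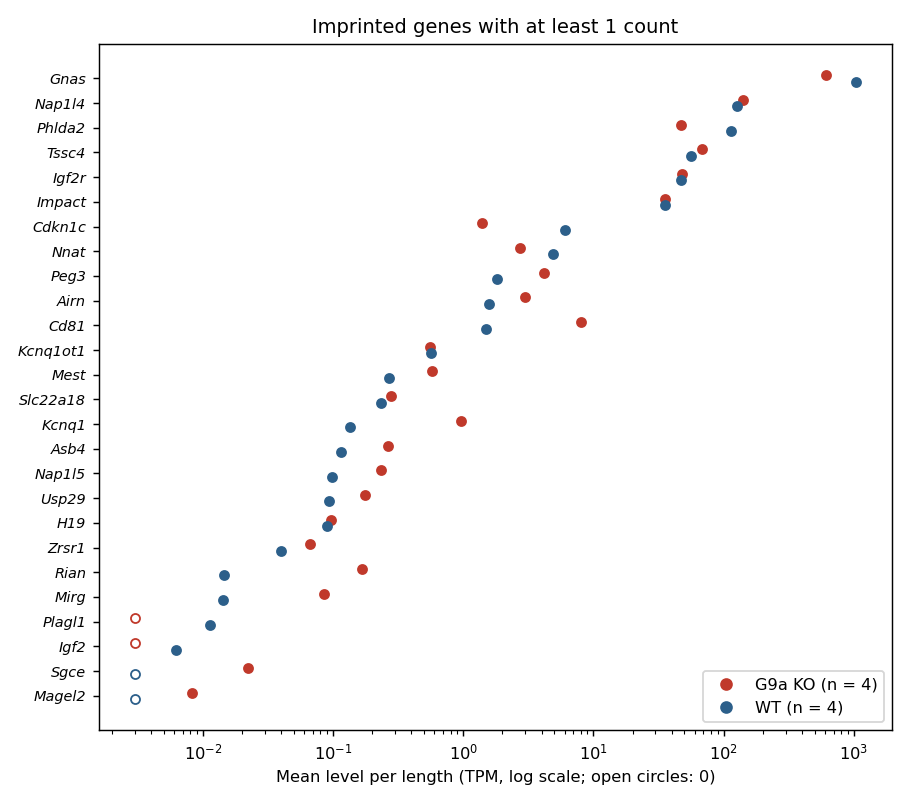
Mean level per transcript length (TPM, log axis) of the imprinted genes with at least 1 count, as means over 4 knockout (red) and 4 WT (blue) libraries; open circles at the left edge stand for 0. Gnas is highest at 612.9 TPM in the knockout and 1048 TPM in the wild type, and 7 genes with no count are not drawn.

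Among the 17 tested genes 9 passed (52.9%, against 47.2% of all genes): Kcnq1, Cd81, Tssc4, Peg3 and Airn rose, and Cdkn1c, Phlda2, Gnas and Nnat fell in the knockout. Their count is near the background and is no result about imprinted genes. Groups did not overlap in 8 of the 17, against 43.9% of all genes. Of the 17, 7 were called and changed at least 2-fold, against 10.3% of all genes, and the median size of the log2 fold change was 0.83, against 0.29 over all genes. That 0.83 was the value of Mest, which was not called and had 95 counts in the knockout and 49 in the wild type (SE 0.46). The genes were not matched to the others for level and were chosen with earlier results known. These contrasts are therefore no result about imprinted genes either. The median log2 fold change itself was 0.09, against 0.00 over all genes, because changes ran in both directions. Genes were also split by the allele known to be expressed in mouse tissues, for some of them in placenta, which was not measured in these cells. Of 9 tested maternally expressed genes 3 rose and 2 fell, against 23.6% each way among all genes. Of 7 tested paternally expressed genes 2 rose and 1 fell, and neither count is a result about parental alleles.

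**Figure D2:**
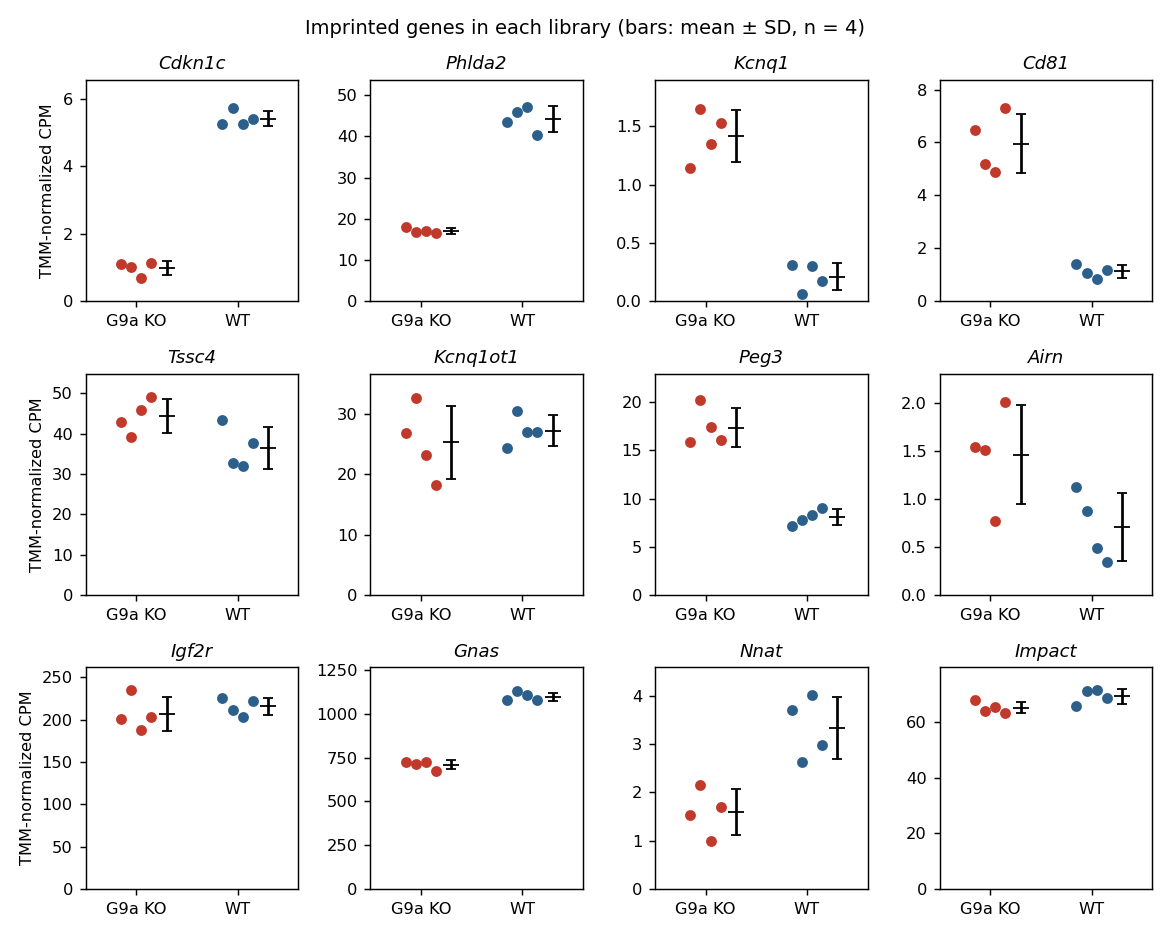
TMM-normalized CPM of 12 imprinted genes in each library, with 4 knockout libraries (red) left of 4 WT libraries (blue) and bars at the mean ± SD; every axis starts at 0. The groups stand apart for Cdkn1c, Phlda2, Kcnq1, Cd81, Peg3, Gnas and Nnat, and overlap for Tssc4, Kcnq1ot1, Airn, Igf2r and Impact.

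In the Kcnq1ot1 domain of distal chromosome 7, the growth-restraining genes Cdkn1c and Phlda2 fell and Kcnq1, Cd81 and Tssc4 rose, while the RNA Kcnq1ot1 did not pass the test. Of 9 listed genes 8 were tested, and Ascl2, a transcription factor gene of the placenta, had no count. Cdkn1c (GRCm38 chr7:143458339-143461050, minus strand) encodes a cyclin-dependent kinase inhibitor that halts the cell cycle. Its counts were 85, 70, 41 and 80 in knockout libraries 1 to 4, against 322, 378, 362 and 341 in WT libraries 1 to 4. All 4 knockout libraries lay below all 4 WT libraries. As TMM-normalized CPM this was 0.982 ± 0.201 in the knockout and 5.41 ± 0.222 in the wild type (SD, n = 4 each), a log2 fold change of -2.45 ± 0.17 (SE; 5.48-fold lower; adjusted p = 9.23e-08).

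Phlda2 (chr7:143501545-143503150, minus), a pleckstrin-homology gene known to limit growth of the mouse placenta, had 18.1, 16.8, 16.9 and 16.5 CPM in knockout libraries, against 43.4, 46.0, 47.2 and 40.3 CPM in WT libraries. The knockout libraries lay close together and under every WT library. The log2 fold change was -1.37 ± 0.07 (2.59-fold lower; adjusted p = 3.84e-09). Slc22a18, a transporter gene between Cdkn1c and Phlda2, was at the detection limit, with 0, 27, 16 and 10 counts in knockout libraries and 9, 10, 12 and 17 counts in WT libraries. It gave no call (0.09 ± 0.78; adjusted p = 0.938). Nap1l4, the next gene beyond Phlda2, had 153.2 ± 1.86 CPM in knockout libraries and 144.7 ± 5.17 CPM in WT libraries (SD, n = 4 each). Its groups did not overlap, but the difference of 0.08 ± 0.04 was not called (adjusted p = 0.134); it passed with library sizes alone (0.16; 0.00724) and among genes of 5 CPM or more (0.12; 0.0237).

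On the other side of the Kcnq1ot1 start the called genes rose. Kcnq1 (chr7:143106362-143427042, plus), a voltage-gated potassium channel gene, had 88, 114, 80 and 109 counts in knockout libraries, against 19, 4, 21 and 11 counts in WT libraries. Each knockout library held more counts than the 55 of all 4 WT libraries together. Normalized, Kcnq1 had 1.42 ± 0.220 CPM in the knockout and 0.212 ± 0.119 CPM in the wild type (SD, n = 4 each), a log2 fold change of 2.73 ± 0.40 (6.62-fold; adjusted p = 9.19e-05). All Kcnq1 counts were on the transcript that covers the gene, and 121 of its 3029 exon bases (3.99%) also belong to Kcnq1ot1 on the opposite strand.

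Cd81 (chr7:143052739-143067934, plus), which encodes a tetraspanin of the cell surface, had 6.49, 5.17, 4.89 and 7.29 CPM in knockout libraries, against 1.40, 1.06, 0.855 and 1.19 CPM in WT libraries. Every knockout library lay above every WT library. The log2 fold change was 2.41 ± 0.19 (5.30-fold; adjusted p = 3.04e-07). Most of these counts were not on the coding transcript: 1502 of 1668 knockout counts (90.0%) and 230 of 290 WT counts (79.3%) were assigned to a retained-intron transcript that starts at 143064674, inside the gene. The full-length coding transcript, which starts at the printed promoter, held 88 counts in the knockout (5.28%) and 17 in the wild type (5.86%). Since 66.7% of the retained-intron transcript's exon bases are shared with it, the split between them is uncertain. R74862, a noncoding gene that overlaps Cd81 on the other strand, also rose, with 0.314 ± 0.149 CPM in knockout libraries and 0.0454 ± 0.0908 CPM in WT libraries (SD, n = 4 each; log2 fold change 2.72 ± 1.00; adjusted p = 0.0398). Without knowledge of how strand was used in the counting, the reads of the pair cannot be told apart.

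Tssc4 (chr7:143069249-143071093, plus), whose product takes part in the assembly of a splicing complex in human cells, had the smallest called change among the listed genes of the domain. It had 42.9, 39.2, 46.0 and 49.0 CPM in knockout libraries, against 43.4, 32.8, 31.9 and 37.6 CPM in WT libraries. The groups overlapped through WT library 1. The log2 fold change was 0.28 ± 0.10 (1.22-fold; adjusted p = 0.028), and the call was lost without knockout library 3 or 4 or WT library 2 or 3 (adjusted p of 0.0663, 0.0948, 0.0766 and 0.0911), and relative to neighbouring genes (0.22; 0.084).

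Kcnq1ot1 itself (chr7:143203458-143296549, minus) had 26.9, 32.6, 23.2 and 18.3 CPM in knockout libraries, against 24.3, 30.5, 27.0 and 27.0 CPM in WT libraries. The knockout libraries held both the highest and the lowest values. The log2 fold change was -0.11 ± 0.14 (adjusted p = 0.56), and it was 0.02 without knockout library 4, so no direction is given.

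Among the listed genes, the called changes had opposite signs on the 2 sides of the Kcnq1ot1 start. Cd81, Tssc4 and Kcnq1 start at -244, -227 and -190 kb (lower coordinates), and Cdkn1c and Phlda2 at 165 and 207 kb. Among 23 tested genes within 800 kb, 6 rose and 5 fell, against 23.6% each way among all genes, with a median log2 fold change of 0.17. Other genes beyond Phlda2 did not share 1 direction. Cars, a tRNA synthetase gene at 304 kb, fell by 0.27 on the log2 scale (adjusted p = 4.40e-04). The decoy receptor gene Tnfrsf22 at 353 kb had 36.3 ± 1.40 CPM in knockout libraries and 56.2 ± 1.61 CPM in WT libraries (SD, n = 4 each) and fell (-0.63 ± 0.05; adjusted p = 3.85e-07), whereas its relative Tnfrsf23 at 389 kb had -0.03 ± 0.05 (adjusted p = 0.617). Osbpl5, a lipid-transfer protein gene at 460 kb that is imprinted in placenta, had 21.1 ± 1.49 CPM in knockout libraries and 12.4 ± 0.442 CPM in WT libraries and rose (0.76 ± 0.07; adjusted p = 1.93e-06). Tspan32 at -292 kb had 1.41 ± 0.56 (adjusted p = 0.056). The tested genes within 10 Mb had a median near 0 (0.06 to 0.08 around these genes), and relative to it Cdkn1c stood at -2.53, Phlda2 at -1.45, Kcnq1 at 2.66 and Cd81 at 2.34, all still called.

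**Figure D3:**
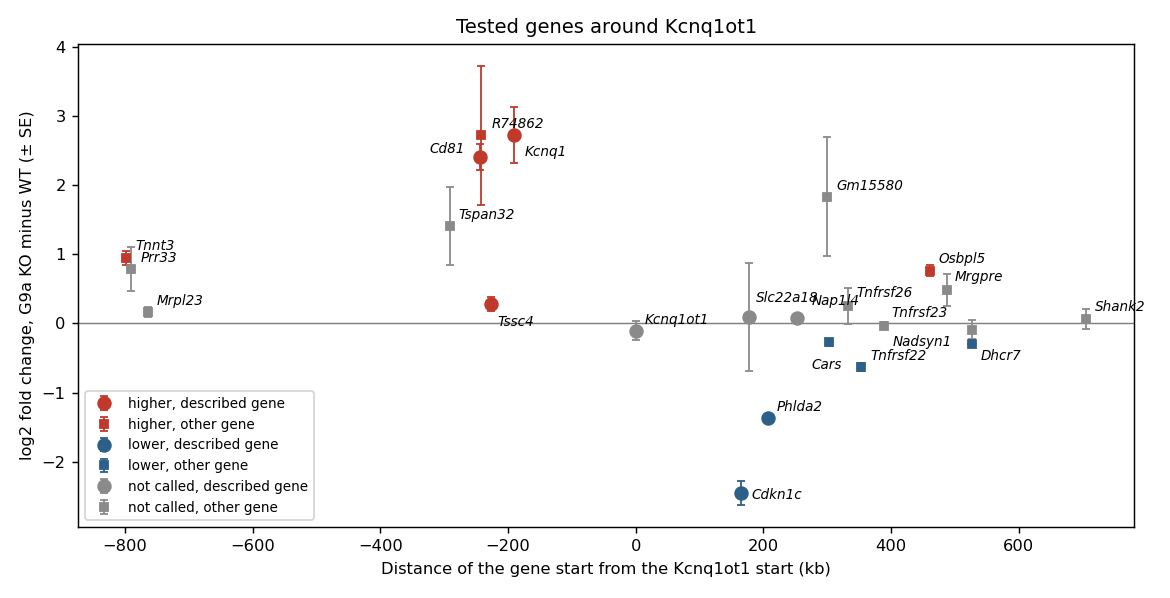
Log2 fold change (knockout minus wild type, bars ± SE) of the 23 tested genes within 800 kb of the Kcnq1ot1 start, by the distance of the gene's start in kb; circles are the listed imprinted genes, squares other genes, red called higher, blue called lower, grey not called. Cd81 and Kcnq1 stand at 2.41 and 2.73 left of the start, and Phlda2 and Cdkn1c at -1.37 and -2.45 right of it.

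In the Igf2r domain of chromosome 17, the antisense RNA Airn passed the test upward with overlapping groups and Igf2r did not pass. Airn (chr17:12741311-12860136, plus) had 119, 105, 46 and 144 counts in knockout libraries, against 69, 58, 34 and 22 counts in WT libraries. Knockout library 3 lay below WT libraries 1 and 2 as CPM, at 0.774 against 1.13 and 0.878. The log2 fold change was 1.05 ± 0.38 (2.06-fold; adjusted p = 0.0365). The call was lost without knockout library 1, 2 or 4 or WT library 3 or 4 (adjusted p of 0.0758, 0.0685, 0.117, 0.0958 and 0.0899). A transcript that starts at 12815931, inside the gene, held 41.3% of Airn counts in the knockout and 48.1% in the wild type. With transcripts summed by groups of nearby starts, neither of the 2 Airn groups was called (edgeR, adjusted p of 0.234 and 0.183). Igf2r (chr17:12682406-12769664, minus), the receptor that carries insulin-like growth factor II to lysosomes, had 200.8, 235.4, 187.9 and 202.8 CPM in knockout libraries, against 225.4, 211.1, 203.2 and 222.2 CPM in WT libraries. The groups overlapped, and the log2 fold change was -0.06 ± 0.07 (adjusted p = 0.487), or 0.02 with library sizes alone. Airn and Igf2r overlap on opposite strands, and Igf2r had 57394 counts in the knockout where Airn had 414. Slc22a2 and Slc22a3, placentally imprinted neighbours of Airn singled out after their values were seen, had no count in any library.

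In the Peg3 domain of proximal chromosome 7, the zinc finger gene Peg3 rose and the other genes were near or at the detection limit. Peg3 (chr7:6703892-6730431, minus), known in mice for its effects on growth and maternal behaviour, had 15.8, 20.2, 17.4 and 16.0 CPM in knockout libraries, against 7.13, 7.76, 8.29 and 9.06 CPM in WT libraries. Every knockout library lay above every WT library. Means were 17.4 ± 2.02 CPM in the knockout and 8.06 ± 0.820 CPM in the wild type (SD, n = 4 each), a log2 fold change of 1.11 ± 0.10 (2.15-fold; adjusted p = 1.44e-06), or 1.16 relative to its neighbours. A single coding transcript held 97.6% of its counts in the knockout and 98.8% in the wild type. Usp29, a deubiquitinase gene that starts beside Peg3 on the other strand, had 0.306 ± 0.143 CPM in knockout libraries and 0.199 ± 0.135 CPM in WT libraries, and was not called (0.63 ± 0.58; adjusted p = 0.41). Zim1 had no count in any library.

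On distal chromosome 2, Gnas and Nnat fell, in stretches where the tested genes within 10 Mb had medians below 0. Gnas (chr2:174284320-174346744, plus) had 727.1, 714.4, 722.9 and 673.7 CPM in knockout libraries, against 1079, 1128, 1105 and 1077 CPM in WT libraries. The groups did not overlap, with a log2 fold change of -0.63 ± 0.04 (adjusted p = 3.20e-08). The 197 tested genes within 10 Mb had a median of -0.50, and relative to it Gnas stood at -0.13 (adjusted p = 0.0151). Of the 8 other tested genes within 300 kb, 4 fell, against 23.6% of all genes: Stx16 (-0.74), Nelfcd (-0.55), Prelid3b (-0.43) and Npepl1 (-0.33). Of the 8, only Ctsz, a lysosomal protease gene, rose (0.46 ± 0.07; adjusted p = 1.65e-04). The antisense gene Nespas had 0.959 ± 0.607 CPM in knockout libraries and 1.18 ± 0.336 CPM in WT libraries (SD, n = 4 each) and was not called (adjusted p = 0.594).

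Gnas is read from several promoters, some of them active on 1 parental allele. Its transcripts were therefore also summed by groups of starts lying within 500 bases of each other. Nearly all counts fell in 2 of its 7 groups, the one with starts from 174327570 to 174328023 and the one with starts from 174330006 to 174330287. The downstream group held 54.7%, 36.8%, 62.6% and 46.3% of Gnas counts in knockout libraries, against 59.6%, 77.9%, 69.9% and 79.8% in WT libraries. Knockout library 3 overlapped WT library 1. The mean shares were 50.1% ± 11.1 in the knockout and 71.8% ± 9.19 in the wild type (SD, n = 4 each), with a two-sided exact permutation p of 0.0571 and 0.2 after adjustment over the 7 groups; the smallest p this design allows is 0.0286. Its level had a log2 fold change of -1.13 ± 0.17 (adjusted p = 0.00137 over all start groups), while the upstream group had 0.25 ± 0.24 (adjusted p = 0.525). All 1716 exon bases of Gnas-208, a transcript of the downstream group, are also exon bases of Gnas-202 in the upstream group, so the division between them rests on an uncertain assignment of reads. The groups at 174284320 and 174297859 each held under 1% of the counts on average and were not called (adjusted p of 0.873 and 0.092).

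**Figure D4:**
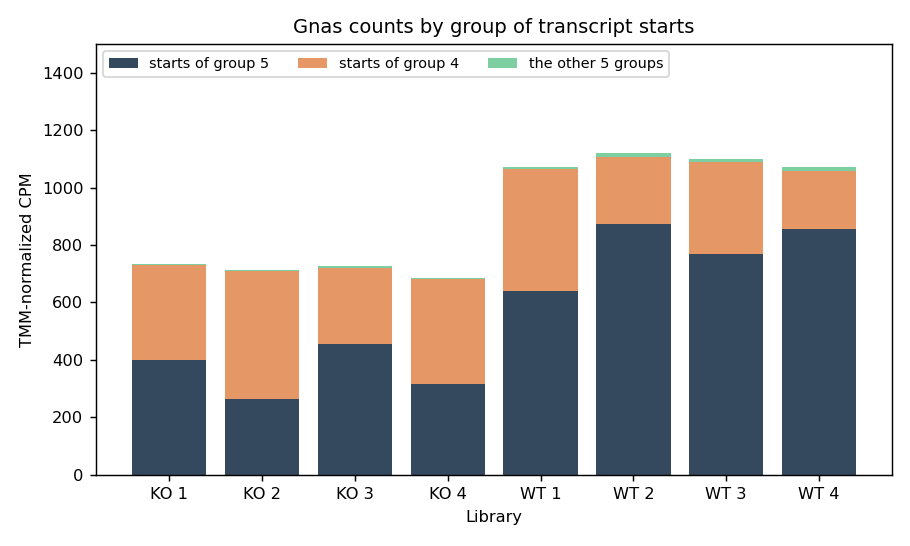
TMM-normalized CPM of Gnas in each library (4 knockout left, 4 WT right), stacked by group of annotated transcript starts; group 5 is the downstream and group 4 the upstream of the main start groups. Group 5 holds 50.1% of the counts on average in the knockout and 71.8% in the wild type, with overlap between knockout library 3 and WT library 1.

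Nnat (chr2:157560078-157562522, plus), a small membrane proteolipid gene of the developing brain and endocrine cells, had 1.52, 2.15, 0.992 and 1.70 CPM in knockout libraries, against 3.70, 2.63, 4.01 and 2.97 CPM in WT libraries. All knockout libraries were below all WT libraries. The log2 fold change was -1.06 ± 0.23 (2.09-fold lower; adjusted p = 0.00183). The 228 tested genes within 10 Mb had a median of -0.55, and relative to it the value was -0.52 and not called (adjusted p = 0.0854). Blcap, an imprinted gene on the other strand within which Nnat lies, had 27.9 ± 1.84 CPM in knockout libraries and 55.1 ± 1.45 CPM in WT libraries (SD, n = 4 each) and fell (-0.98 ± 0.06; adjusted p = 2.40e-08). Most Nnat counts, 73.8% in the knockout and 89.0% in the wild type, were on a retained-intron transcript, and reads of the 2 genes cannot be told apart without strand.

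**Figure D5:**
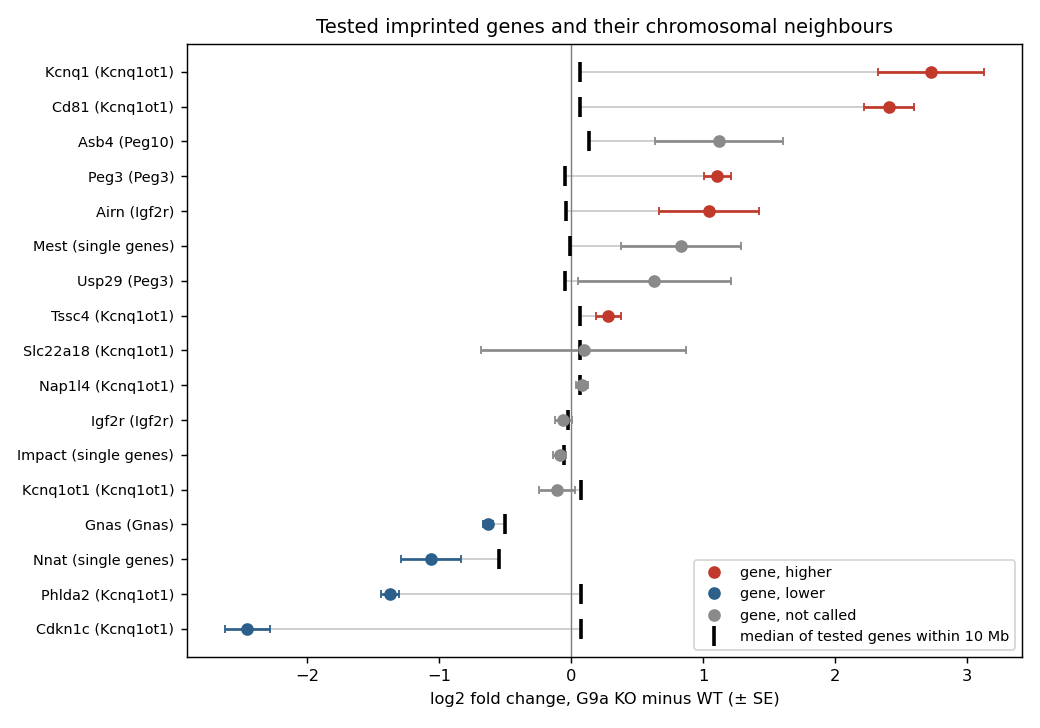
Log2 fold change (knockout minus wild type, bars ± SE) of the 17 tested imprinted genes, with their domain in brackets, and the median of the tested genes within 10 Mb as a black tick. The ticks lie near 0 except at Gnas (-0.50) and Nnat (-0.55).

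The listed genes of the remaining domains had few or no counts in both groups. Of the Igf2-H19 domain, the growth factor gene Igf2 had no count in knockout libraries and 0, 4, 0 and 0 counts in WT libraries, and the noncoding RNA H19 had 7, 14, 8 and 0 counts in knockout libraries and 5, 13, 7 and 0 counts in WT libraries. Of the Dlk1-Meg3 domain, the ligand gene Dlk1 and the noncoding RNA Meg3 had none. Rian, a host of small nucleolar RNAs, had 11, 8, 8 and 9 counts in knockout libraries and 5, 0, 0 and 0 counts in WT libraries, and the microRNA host Mirg had 11, 0, 3 and 9 counts in knockout libraries and 0, 3, 0 and 0 counts in WT libraries. Rian did not overlap between the groups, at 36 counts in the knockout and 5 in the wild type. When every gene with a count was fitted, neither was called (adjusted p of 0.162 and 0.242).

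In the Snrpn domain, Snrpn and Ndn had no count and Magel2 had 5 counts, all in knockout library 2. In the Peg10 domain, the retrotransposon-derived gene Peg10 had none, and Sgce, a sarcoglycan gene, had 8 counts in the knockout and none in the wild type. Asb4, an adaptor of ubiquitin ligases, was tested and had 19, 50, 23 and 24 counts in knockout libraries, against 12, 18, 7 and 13 counts in WT libraries (log2 fold change 1.12 ± 0.49; adjusted p = 0.0758). Of the genes outside larger domains, Mest, a hydrolase-like gene, had 0.83 ± 0.46 (adjusted p = 0.159). Impact, a regulator of translation under amino acid shortage, had 65.2 ± 2.01 CPM in knockout libraries and 69.4 ± 2.72 CPM in WT libraries (SD, n = 4 each; -0.09 ± 0.05; adjusted p = 0.153). The zinc finger gene Plagl1 had no count in the knockout and 8 in the wild type, Zrsr1 had 42 counts in the knockout and 24 in the wild type, and Nap1l5 had 60 in the knockout and 24 in the wild type. Zrsr1 and Nap1l5 lie inside Commd1 and Herc3, which had 8169 and 5922 counts in the knockout. None of the 9 genes with too few counts for the test was called when all genes with a count were fitted (adjusted p of 0.143 to 0.951).

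A further list of 60 imprinted genes of the mouse gave 58 in the table and 31 tested, of which 12 rose and 10 fell (71.0% called, against 47.2% of all genes and 23.6% each way). Their median log2 fold change was 0.12, against 0.00 over all genes. This list too was not matched to the other genes for level and was chosen with earlier results known. The share called is therefore no result about imprinted genes. Grb10, an inhibitor of insulin receptor signalling, was the most changed of the called genes by p, at -6.79 ± 0.10, and at -6.63 relative to its neighbours. Ppp1r9a, a neuronal actin-binding protein gene of the Peg10 domain, had 13.3 ± 1.33 CPM in knockout libraries and 4.13 ± 0.581 CPM in WT libraries (SD, n = 4 each) and rose (1.68 ± 0.12; adjusted p = 1.09e-07). The signal peptide peptidase gene H13 on chromosome 2 fell (-0.90 ± 0.04; adjusted p = 1.82e-09), by 0.32 relative to neighbours. Trappc9, a vesicle-trafficking gene, and Atp10a, a lipid flippase gene, rose by 0.65 and 0.66 (adjusted p of 3.77e-07 and 5.73e-06).

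Of 29 genes known to set, keep or remove the DNA methylation and histone marks used in imprinting, 27 were tested, and 19 fell with edgeR (70.4%, against 23.6% of all genes called lower). Without Ehmt2 itself, 18 of 26 fell (69.2%). None rose, and none of the higher values reached an unadjusted p of 0.05, with DESeq2 and limma-voom likewise calling 0 higher. The falls were mostly small, with a median log2 fold change of -0.23. With counts scaled by library size alone, the median of all genes moved by 0.08. These genes were not matched to the others for level, and the list was chosen with earlier results known. The share called lower is therefore no result about these genes as a set. Zfp57, which binds methylated control regions and recruits the silencing machinery, had 39.4 ± 1.18 CPM in knockout libraries and 55.6 ± 1.16 CPM in WT libraries (SD, n = 4 each; -0.50 ± 0.05; adjusted p = 2.00e-06). Its partners Trim28 and Setdb1 each fell by 0.30 (adjusted p of 1.14e-05 and 1.56e-04). The DNA methyltransferase gene Dnmt3b fell (-1.04 ± 0.11; adjusted p = 3.80e-06), or -0.47 relative to its neighbours on chromosome 2 (adjusted p = 0.003). The 5-methylcytosine oxidase genes Tet2 and Tet3 fell by 0.90 and 0.65, and Arid4a fell by 0.37. Of genes chosen later, Dnmt1 fell by 0.195 (adjusted p = 0.00557), while Uhrf1 (0.04 ± 0.05) and Dnmt3a (0.08 ± 0.06) were not called.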

How the data were processed

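Poly-A RNA was sequenced in 4 knockout and 4 wild-type libraries, after TRIzol extraction and with a SMARTer mRNA kit per the labels' protocols. FastQC, Trimmomatic, HISAT2 and the assembly GRCm38.p6 are listed, without versions or roles, in the submitters' processing notes. Which counter and annotation were used, and whether strand was, is not given in the sources used here. Whole-number counts per transcript, not normalized, are what the authors deposited. The planned test assumed counts per gene, so transcripts were summed per gene with GENCODE mouse release 21 (GRCm38). Of 115220 transcripts 114332 matched (99.23%), and the 888 others held 0.148% to 0.17% of a library's counts and were left out. Totals were 58256100 to 75025236 counts.

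Groups follow the genotype label, and each library was 1 replicate. Between replicates, counts varied beyond sampling noise (chi-square over its degrees of freedom 10.94 or more). The test was edgeR 4.0.16 quasi-likelihood F (R 4.3.3, TMM, filterByExpr, genotype only, two-sided), with Benjamini-Hochberg adjustment over all genes tested and a threshold of 0.05. SE was taken as the absolute log2 fold change over the root of F. TPM was computed from counts and annotated transcript lengths. Shares were compared with exact permutation tests. On simulated counts for this comparison (200 changed of 15453 genes), the test recovered 86.6% of changes of 1.5-fold, 92.5% of those of 2-fold and 100% of those of 4-fold, and 7.46% of calls were false. The changed genes were drawn from those above 1 CPM, so recovery below that level was not measured. In the data 47.2% of genes were called, so these rates may not carry over. Alternatives were DESeq2 1.42.0, limma 3.58.1 (voom), other scalings and filters, a replicate block, an offset by the median of tested genes within 10 Mb, other joining of starts and each library left out. Promoters are RefSeq's for GRCm38.p6. Python 3.11.15 made the tables.

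The genes and lists were chosen with earlier results of these data known, and the expressed alleles were listed after the data were seen. Named genes were all 33 listed, up to 8 called genes with the lowest p of each further list, tested neighbours within 200 kb of a called gene and genes marked as chosen later. Not all neighbours that qualify are named. Of the further list, Copg2os2 and Peg3os are not analysed here. The leukocyte marker list is reported in part.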

Additional observations from a re-analysis of the deposited data

Results flagged for a closer look

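Usp29 had 0.52 CPM in knockout library 1, against 0.224 to 0.246 CPM in the other knockout libraries. The gap to the nearest was 0.928 of the group's whole range. Among 34 groups of 4 libraries examined this was the 1 that stood out. Chance gives about 1 flag in 20 groups, so 1 flag in 34 is no more than chance gives. The count in that library was 40, against 17, 14 and 16 in the other knockout libraries.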

How the results depend on the processing

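Under the other tools, scalings and filters, Cdkn1c, Phlda2, Kcnq1, Cd81, Peg3 and Gnas kept their direction and their call wherever they were tested. With every gene of at least 1 read, 3 of the listed genes were higher, since Tssc4 and Airn lost their calls (adjusted p of 0.0588 and 0.0753). With a mean of at least 5 CPM, 8 were tested, and 3 were higher and 2 lower. Leaving out 1 library gave 3 to 5 higher and 4 lower. For their start groups it gave 3 to 6 higher and 4 to 5 lower, the 6 without WT replicate 1. In the main fit 23.6% of all genes were called each way, and 27.3% of all start groups were called in either direction. Slc22a18 changed sign with limma-voom (-0.99), under the block (-0.33) and over the libraries left out (-0.47 to 0.52). Leaving out 1 library, Kcnq1ot1 ranged from -0.249 to 0.018 and the first Gnas start group from -1.48 to 0.10. Igf2r was 0.021 with library sizes alone. The downstream Gnas share differed by -25.9 to -17.3 percentage points with 1 library left out. The cause of these shifts was not tested, apart from fewer genes and fewer libraries.

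Knockout and WT libraries of 1 number did not deviate together (correlations of -0.023, -0.002, 0.075 and -0.018), so the numbers were not taken as pairs. With a replicate block, 3643 genes were higher and 3612 lower, and 5 of the listed genes were higher and 4 lower. At this depth a count of 0 allows a level of up to 0.04 to 0.0515 CPM, by library.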
